A study of Homo sapiens with 192 samples.

Results

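Long noncoding RNAs (lncRNAs) that have been linked to colorectal cancer (CRC) were followed in 4 human CRC cell lines grown in 2D and in 3D. The 6 genes named were MALAT1, NEAT1, PVT1, CCAT1, UCA1 and MIR210HG, which were looked up by symbol. Of these 6, 5 matched an Ensembl identifier among the 58243 in the count tables, and all 5 passed the filter on low counts that kept 19387 genes for testing. CCAT1 matched no identifier in the name tables used and was not analysed under that name. Each of the established lines HT29, LS513, HCT116 and LS174T had 3 libraries from 2D growth and 3 from 3D growth, which gave 8 groups and 24 libraries. By the study's account, microsatellites are stable in HT29 and LS513 and instable in LS174T and HCT116. The labels name no treatment of the sequenced cells, and HCT116 was kept in McCoy medium while the other lines were kept in DMEM. The labels name the 3D growth without its format, and the spheroids of the study's growth assays were formed in plates to which cells attach poorly. Each line stands for 1 established culture, and the labels do not say whether its libraries came from separate cultures, so p-values measure the spread between these libraries only.

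Long noncoding RNAs are transcripts that are not translated into protein and that act, where a function is known, as RNA. MALAT1 lies in nuclear speckles, the nuclear bodies that hold splicing factors. NEAT1 is the scaffold of paraspeckles, nuclear bodies built from RNA-binding proteins on its long form. PVT1 is the neighbour of the oncogene MYC, CCAT1 is transcribed on the other side of MYC, UCA1 was first described in bladder carcinoma, and MIR210HG is the host transcript of miR-210, a microRNA known for its rise in low oxygen through hypoxia-inducible factor (HIF). The libraries were made from RNA selected by oligo(dT). MALAT1 and the long form of NEAT1 end in a triple helix in place of a poly(A) tail, so their levels here need not follow their abundance in the cell.

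Library totals ranged from 18723942 to 34277421 counts, and the floor of 3 counts corresponded to 0.0875 to 0.160 CPM, a count scaled to library size. Levels are CPM scaled by TMM, with a group given as its mean and SD over 3 libraries, and a change is the log2 ratio of 3D to 2D with its standard error (SE) from the edgeR fit. Adjusted p-values come from edgeR's quasi-likelihood test with Benjamini-Hochberg adjustment over the 19387 genes. The lowest total belonged to 2D replicate 3 of HT29, and mitochondrially encoded genes took between 1.02% and 5.56% of the counts, with the highest share in 3D replicate 1 of HCT116. All 13 colorectal epithelial markers were at 1 CPM or more in HT29, LS513 and LS174T. In HCT116 this held for 7 of 13, and CDX1, CDH17 and CEACAM5 stayed at or below 3 counts in every HCT116 library. Of 16 markers of other cell types, PTPRC, CD3E, COL1A2, COL3A1, DCN and LUM were at or below 3 counts in all 24 libraries. CD68 was at 1 CPM or more in all 4 lines, with PECAM1 in HT29 and COL1A1 and VIM in HCT116. In bulk RNA, fewer cells that make a transcript and less transcript per cell cannot be told apart.

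In HT29, 1 of the 5 lncRNAs rose in 3D, against 21.1% of all tested genes that rose, and 2 fell, against 19.6%. In LS513, 3 of 5 rose, against 13.7% of tested genes, and 0 fell, against 9.9%. In HCT116, 3 of 5 rose, against 16.8%, and 0 fell, against 12.3%. In LS174T, 3 of 5 rose, against 13.1%, and 0 fell, against 9.15%. MIR210HG rose in all 4 lines, UCA1 and PVT1 rose in LS513, HCT116 and LS174T, and the 2 that fell in HT29 were NEAT1 and MALAT1. The growth effect differed among the 4 lines for 2 of the 5, UCA1 and PVT1, against 17.1% of tested genes.

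**Figure D1:**
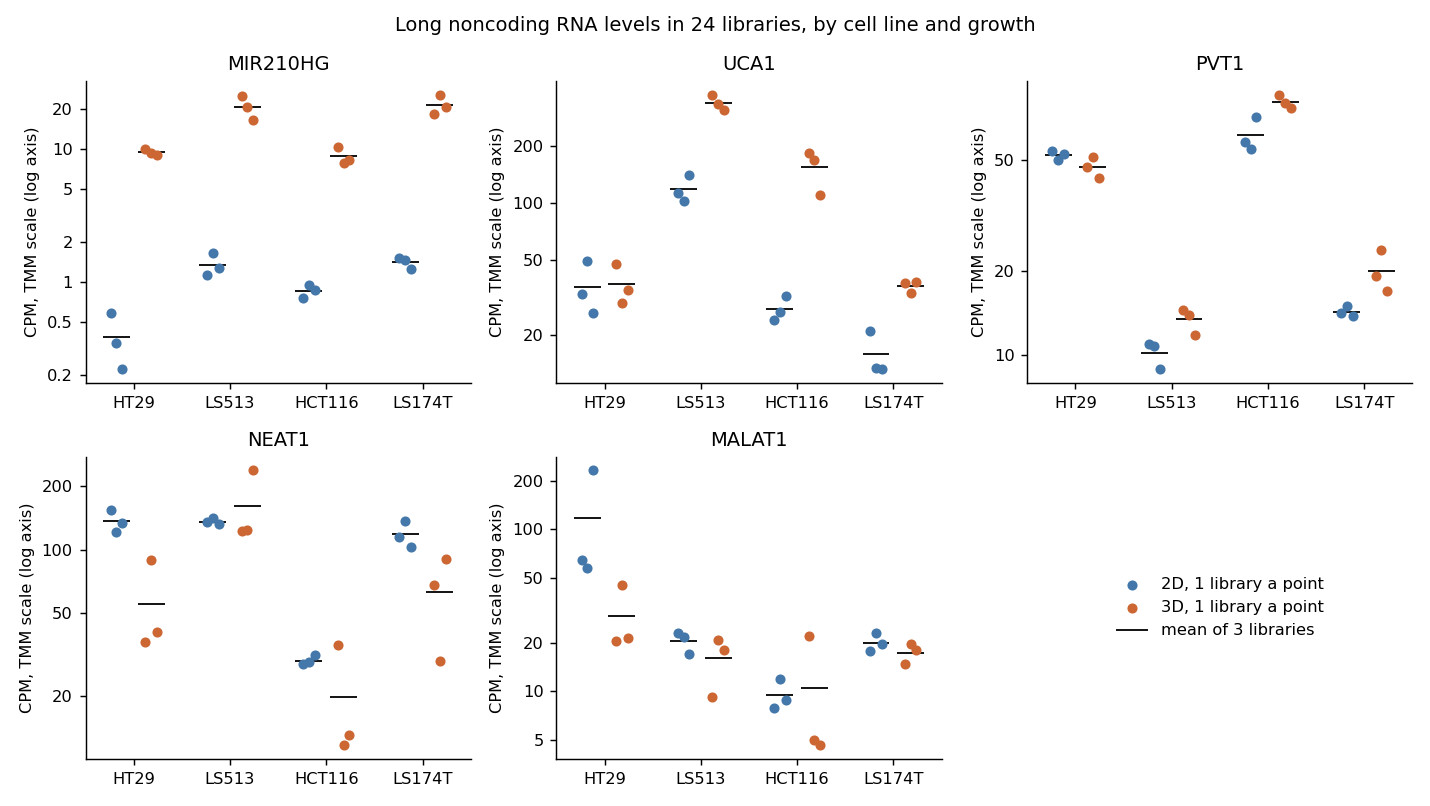
Level of each lncRNA in the 24 libraries, with cell lines on the x axis and CPM on the TMM scale on a log y axis. Each point is 1 library, blue for 2D and orange for 3D, and each bar is the mean of 3 libraries. The 2D and 3D libraries of MIR210HG are apart in all 4 lines, while 1 library each sets MALAT1 apart in HT29 2D (231 CPM) and in HCT116 3D (21.8 CPM).

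**Figure D2:**
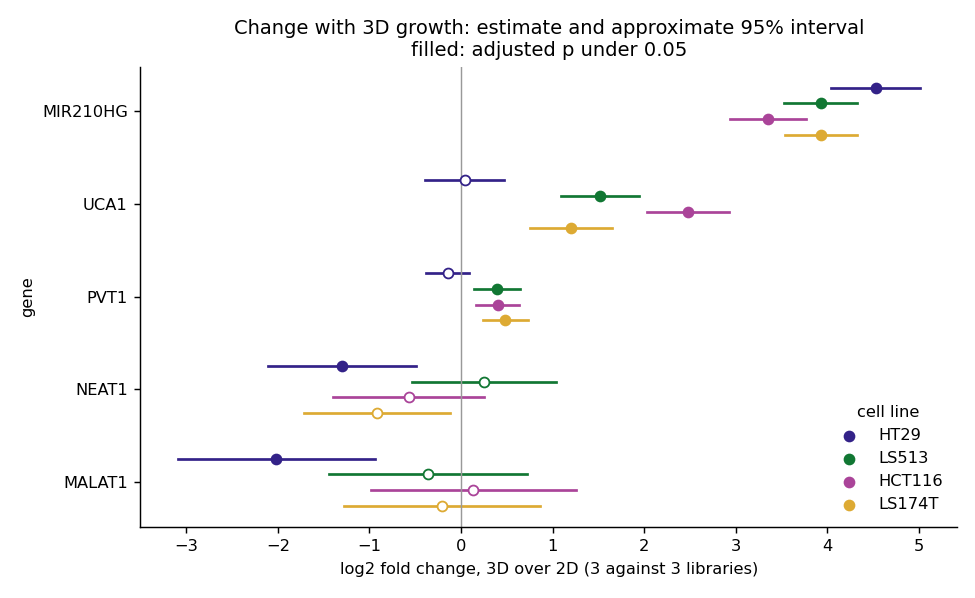
log2 fold change of 3D over 2D on the x axis for each lncRNA on the y axis, with 1 point for each cell line and lines that span 1.96 standard errors to each side. Filled points have an adjusted p under 0.05. MIR210HG lies between 3.35 and 4.53 in the 4 lines, and the intervals of MALAT1 and NEAT1 are the widest of the 5 genes.

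MIR210HG (ENSG00000247095) is annotated at chr11:565660-568457 on the minus strand of GRCh38, with 2321 exonic bases. It encloses the hairpin of miR-210 at chr11:568089-568198, which overlaps 0 of its annotated exons and so lies in an intron. The mature microRNAs of this hairpin, from RefSeq on GRCh38.p14, are shown because they give the host gene its name. Capitals mark the seed, bases 2 to 8.

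hsa-miR-210-3p: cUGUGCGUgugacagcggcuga

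hsa-miR-210-5p: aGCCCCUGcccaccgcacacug

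The microRNA gene itself, MIR210, held 7 counts over all 24 libraries and at most 3 in 1 library, so its own level was not measurable in these libraries of long poly(A) RNA.

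The window around the RefSeq start of MIR210HG, chr11:568408-568707 on the minus strand of GRCh38.p14, is shown because the gene rose in every line. It covers 250 bases before and 50 after the start. Capitals mark the letters ACGTG and GCGTG, the core of the sites that HIF is known to bind.

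MIR210HG promoter: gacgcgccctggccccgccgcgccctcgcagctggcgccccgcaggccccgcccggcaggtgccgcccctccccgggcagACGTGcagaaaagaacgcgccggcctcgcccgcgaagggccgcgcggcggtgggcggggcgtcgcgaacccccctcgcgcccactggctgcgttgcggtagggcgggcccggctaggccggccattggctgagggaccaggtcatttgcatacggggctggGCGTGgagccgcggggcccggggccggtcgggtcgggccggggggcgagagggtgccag

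ACGTG starts at position -170 and GCGTG at -9 relative to the start, both on the strand of the gene, and both strands were searched. Of 35116 RefSeq promoters of this length, 21.4% held ACGTG, 36.5% held GCGTG and 9.51% held both. The matches in the window shown do not overlap. Both RefSeq promoter windows of MALAT1, which rose in 0 of the 4 lines, also hold GCGTG on 1 strand or both, but not ACGTG. No such window was available for NEAT1, UCA1 or PVT1. Whether these letters have a part in any change was not tested. A match of this kind describes the letters and is not a measured binding site.

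In HT29, MIR210HG was at 0.583, 0.344 and 0.219 CPM in the 2D libraries, from 4 to 17 counts, and at 9.92, 9.19 and 8.96 CPM in the 3D libraries, from 247 to 329 counts. The lowest 3D library was far above the highest 2D library, and the mean went from 0.382 ± 0.185 to 9.36 ± 0.502 CPM (SD, n = 3). The fitted change was 4.53 on the log2 scale (SE 0.25, adjusted p = 2.39e-11), or 23.1-fold, the 69th largest increase of all tested genes in that line.

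In LS513, the 2D libraries held 1.13, 1.63 and 1.27 CPM and the 3D libraries 24.7, 20.4 and 16.4 CPM. The change was 3.93 (SE 0.20, adjusted p = 2.15e-11), or 15.2-fold, with no overlap. In HCT116, the 2D libraries held 0.755, 0.949 and 0.866 CPM and the 3D libraries 10.3, 7.84 and 8.25 CPM, again apart, with a change of 3.35 (SE 0.21, adjusted p = 1.01e-10), or 10.2-fold. In LS174T, 2D growth gave 1.49, 1.45 and 1.24 CPM and 3D growth 18.2, 25.4 and 20.4 CPM. The change there was 3.93 (SE 0.20, adjusted p = 1.73e-11), or 15.2-fold.

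Every 3D group of MIR210HG was above every 2D group, whatever the line. LS174T and LS513 had the highest levels in 3D and in 2D and overlapped each other in both. HT29 and HCT116 overlapped in 3D, and in 2D HT29 was lower than HCT116 (log2 difference -1.09, SE 0.30, adjusted p = 0.00294). The test that the growth effect differed among the 4 lines gave an adjusted p of 0.10, and 0.0295 without 2D replicate 1 of HT29, the 2D library of that line with the most counts.

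RASSF7, the tested gene nearest to MIR210HG at lower coordinates, ends 1639 bases away and runs on the opposite strand. It rose in all 4 lines, by 0.85 to 1.06 on the log2 scale, with adjusted p-values from 0.0018 to 0.00677. PHRF1, 8029 bases away on the other side, fell by 0.31 in HT29 (adjusted p = 0.00328) and by 0.28 in LS174T (adjusted p = 0.0159), and its values of -0.12 in LS513 and -0.19 in HCT116 did not pass the test.

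The profiles most like that of MIR210HG over the 24 libraries, by the root mean square difference of log2 CPM after centring each gene on its own mean, were those of NDRG1 (0.75), ALDOC (0.75) and ANKRD37 (0.87). MIR210HG itself had a standard deviation of 2.05 on that scale. Centred within each line, the nearest were NDRG1 (0.44), ALDOC (0.57) and CLIC3 (0.62). NDRG1 is a stress response gene and ALDOC encodes an aldolase of glycolysis.

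A list of genes known as targets of HIF was counted beside MIR210HG, and HIF and oxygen were not measured in these samples. Of 33 tested, 22 rose and 1 fell in HT29, 29 rose in LS513, 28 rose in HCT116 and 32 rose in LS174T, with 0 that fell in those 3 lines. Of all tested genes, 21.1%, 13.7%, 16.8% and 13.1% rose in these lines in that order. The median log2 change of the list was 0.70 in HT29 and between 1.18 and 1.39 in the other lines, beside medians over all tested genes between 0.00 and 0.02. The 19 that rose in all 4 lines included NDRG1, BNIP3L, which encodes a receptor for the removal of mitochondria, and P4HA1, a subunit of collagen prolyl hydroxylase. How many of all tested genes rose in all 4 lines was not counted. In HT29, NDRG1 went from 14.6 ± 1.2 to 295 ± 96.9 CPM, a log2 change of 4.34, close to the 4.53 of MIR210HG. The changes were further apart elsewhere, at 3.29 against 3.93 in LS513, 4.36 against 3.35 in HCT116 and 4.23 against 3.93 in LS174T. BNIP3L changed by 2.05 to 2.32 and P4HA1 by 1.13 to 2.15 across the lines. ENO1, a glycolytic enolase, was the gene that fell in HT29, by 0.45, and it rose in the other lines by 0.30 to 0.72.

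**Figure D3:**
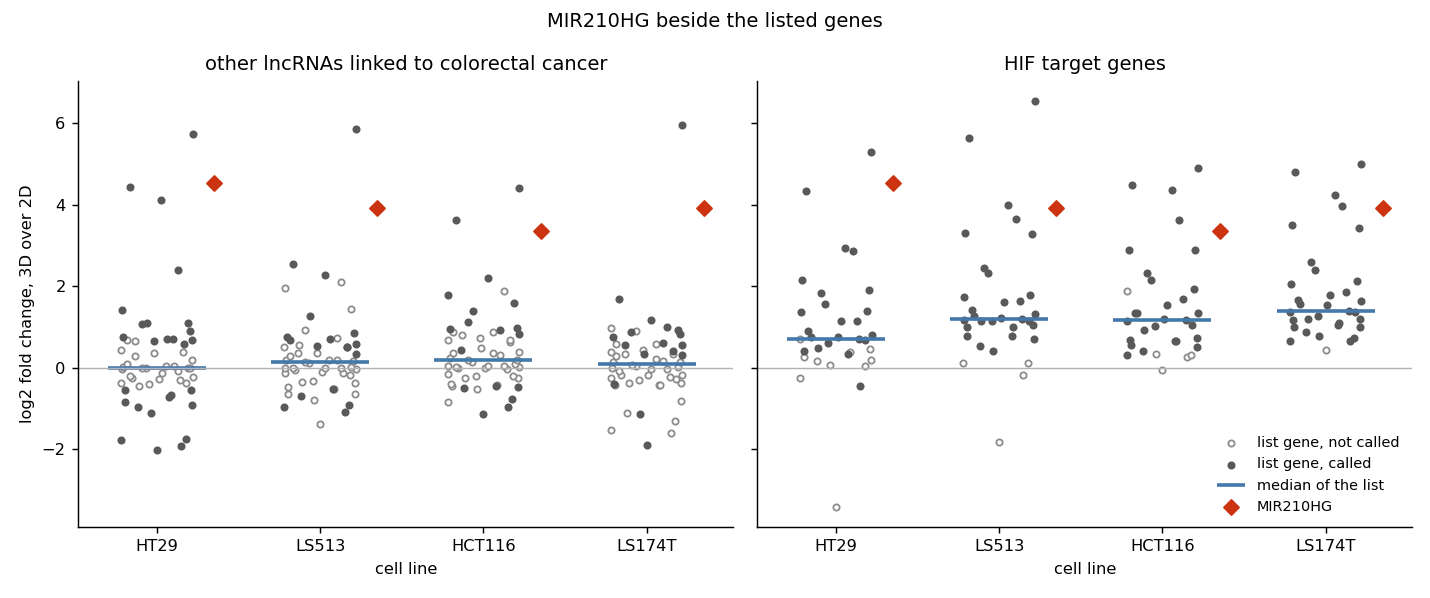
log2 fold change of 3D over 2D for 54 other lncRNAs linked to CRC (left) and 33 HIF target genes (right) in each line, with called genes filled, the median of the list as a blue bar and MIR210HG as a red diamond. The HIF list has medians between 0.70 and 1.39 and MIR210HG lies between 3.35 and 4.53.

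UCA1 (ENSG00000214049) is annotated at chr19:15828206-15836326 on the plus strand, with 4152 exonic bases. It spanned 13.1 to 373 CPM over the 24 libraries. In HT29 the 2D libraries held 32.9, 49.2 and 26.0 CPM and the 3D libraries 47.2, 29.7 and 34.4 CPM. The groups overlapped, and the change was 0.04 (SE 0.22, adjusted p = 0.944), with an interval of 1.96 SE from -0.40 to 0.47.

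The other lines all rose. In LS513, the line with the highest level, UCA1 went from 112, 102 and 140 CPM in 2D to 373, 334 and 308 CPM in 3D, a change of 1.52 (SE 0.22, adjusted p = 2.33e-05), or 2.86-fold. In HCT116 it went from 24.2, 26.4 and 32.4 CPM to 183, 168 and 110 CPM, a change of 2.48 (SE 0.23, adjusted p = 4.69e-08), or 5.58-fold. In LS174T it went from 21.1, 13.4 and 13.1 CPM to 37.8, 33.4 and 38.2 CPM, a change of 1.20 (SE 0.23, adjusted p = 0.000723), or 2.30-fold. The libraries of the growth conditions were apart in each of these 3 lines, and the growth effect differed among the 4 lines (adjusted p = 5.68e-05).

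UCA1 in HCT116 overlapped HT29 in 2D (27.6 ± 4.25 against 36.0 ± 11.9 CPM, adjusted p = 0.126, and 0.0232 without 2D replicate 3 of HT29), and in 3D reached 154 ± 38.6 CPM, which overlapped the 2D libraries of LS513. The 3D libraries of LS174T and both groups of HT29 lay close together at means of 36.0 to 37.1 CPM.

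An element annotated as a gene of its own, RF02202, lies in an exon of UCA1 on the same strand, 6524 bases from its start, at chr19:15834730-15834804. It is shown, from GENCODE 29 on GRCh38, because its 75 bases are 1.81% of the exonic bases of UCA1 while its count was about 12% of that of UCA1.

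RF02202: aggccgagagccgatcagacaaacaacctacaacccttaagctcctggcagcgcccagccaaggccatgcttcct

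The mean share lay between 11.7% (± 1.63, HCT116) and 12.3% (± 0.85, LS513) in the 2D groups, and between 11.8% and 13.2% in the 3D groups. By the study's methods, every overlap of an alignment with an annotated exon was counted and summed by gene, but the overlap mode is not named. All 75 bases of RF02202 lie in exonic bases of UCA1 on the same strand, so a read on the element also overlaps UCA1. The shares are therefore ratios of 2 counts that may hold the same reads, and the element is no independent measure of the gene, here and for the elements further on. RF02202 changed by 0.14 in HT29 (adjusted p = 0.713), 1.55 in LS513, 2.64 in HCT116 and 1.18 in LS174T, and the latter 3 passed the test. Across the region, the share of the count that fell on this element stayed at a like level while the gene rose.

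LINC01764 runs on the opposite strand and shares 489 exonic bases with UCA1. It had 311 counts in all, rose by 1.63 in LS513 (adjusted p = 0.0102) and by 1.64 in HCT116 (adjusted p = 0.00844), and did not pass the test in HT29 (0.121 to 0.352 CPM) or LS174T, where its 2D level was below the floor. The kit marks strand, but the strand setting of the counting is not given in the sources used here. AP000769.2, which shares 396 exonic bases with MALAT1 on the opposite strand, had 12 counts in all, so few reads of MALAT1 were counted to it. Whether the 311 counts of LINC01764 hold reads of UCA1 was not tested. The same limit applies to the antisense genes named further on.

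CYP4F12, a cytochrome P450 gene whose end lies 131032 bases before UCA1, rose in all 4 lines, most in HCT116 (2.10) and least in LS174T (0.65). LINC01835, 15667 bases beyond UCA1, had 0 counts in HT29, LS513 and LS174T and went from 3.39 to 15.9 CPM in HCT116, a change of 2.23 (adjusted p = 5.28e-05). The profiles most like that of UCA1 over the 24 libraries were those of HLA-F (0.50), PLEKHA4 (0.50) and CD68 (0.52), and centred within each line those of CALHM3 (0.30), CEACAM1 (0.31) and CLDN4 (0.32). CD68 is among the markers of other cell types. The summed level of the 16 markers rose with 3D growth, for instance from 18.7 to 21.2 CPM in LS513 2D to 63.1 to 93.5 CPM in LS513 3D. In LS513, CD68 was the only 1 of the 16 with a mean of 1 CPM or more, and 11 stayed at or below 3 counts. The sum there is thus mostly CD68 itself and does not describe the other markers. The part of these markers in the change of UCA1 was not tested.

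PVT1 (ENSG00000249859) spans chr8:127794533-128101253 on the plus strand, with 5493 exonic bases in 21 merged exons. In 2D it was at 61.6 ± 8.99 CPM in HCT116 and 52.3 ± 1.79 CPM in HT29, which did not differ past the threshold (log2 difference -0.24, adjusted p = 0.0838). LS174T was at 14.3 ± 0.625 CPM and LS513 at 10.2 ± 1.14 CPM, each below both HT29 and HCT116, and LS513 was below LS174T (log2 difference -0.49, adjusted p = 0.00207). Without 2D replicate 2 of HCT116, HT29 was also below HCT116 (-0.32, adjusted p = 0.0375).

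In HT29, PVT1 had 53.9, 50.4 and 52.6 CPM in 2D and 47.5, 51.3 and 43.1 CPM in 3D, a change of -0.14 (SE 0.12, adjusted p = 0.365). In LS513 it went from 10.9, 10.8 and 8.83 CPM to 14.5, 13.8 and 11.8 CPM, a change of 0.40 (SE 0.13, adjusted p = 0.0271). In HCT116 it went from 58.1, 54.9 and 71.8 CPM to 86.1, 80.7 and 77.4 CPM, a change of 0.40 (SE 0.12, adjusted p = 0.0140). In LS174T it went from 14.1, 15.0 and 13.7 CPM to 19.2, 23.8 and 16.9 CPM, a change of 0.48 (SE 0.12, adjusted p = 0.00842). The increases of 1.32-fold to 1.40-fold were small beside those of UCA1 and MIR210HG, and 2D and 3D libraries did not overlap in these 3 lines.

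The growth effect on PVT1 differed among the lines with an adjusted p of 0.0336. It was 0.0503 with the size factors of DESeq2, 0.0758 without the filter on low counts and 0.169 with a replicate block. It was also lost when 1 of 14 libraries was left out, namely any library of HT29 (0.0569 to 0.158), 3D replicate 1 or 2 of LS513, 2D replicate 1 or 3D replicate 1 or 2 of HCT116, or 2D replicate 1 or 3 or 3D replicate 1 of LS174T (0.0505 to 0.0708 for these). The call in LS513 was lost without 2D replicate 3 (adjusted p = 0.131), 3D replicate 1 (0.130) or 3D replicate 2 (0.0964). The call in HCT116 was lost without 2D replicate 1 (0.0709), 2D replicate 2 (0.0901) or 3D replicate 1 (0.0700), and the call in LS174T without 3D replicate 2 (0.0644) and when only its 6 libraries were fitted (0.0744).

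Elements annotated inside the exons of PVT1 differed between HT29 and HCT116, whose PVT1 totals did not differ past the threshold. RF02164 starts 8 bases from the start of PVT1 and held 3.87% ± 0.482 of the PVT1 count in HT29 2D and 8.64% ± 0.615 in HCT116 2D. RF02166 starts 96093 bases from the start of PVT1 and held 7.36% ± 0.356 in HT29 2D and 2.22% ± 0.0328 in HCT116 2D. In 2D, HT29 was below HCT116 for RF02164 (log2 difference -1.41, SE 0.20, adjusted p = 9.64e-07) and above it for RF02166 (1.49, SE 0.24, adjusted p = 9.22e-06). LS513 and LS174T held 10.5% ± 1.2 and 10.4% ± 0.832 of their PVT1 count on RF02166 in 2D. With 3D growth, RF02166 rose in LS513 (0.78, adjusted p = 0.0316) and HCT116 (0.88, adjusted p = 0.00888), and RF02164 passed the test in 0 of the 4 lines, with values from -0.04 to 0.50. No sequence of this region is shown.

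**Figure D4:**
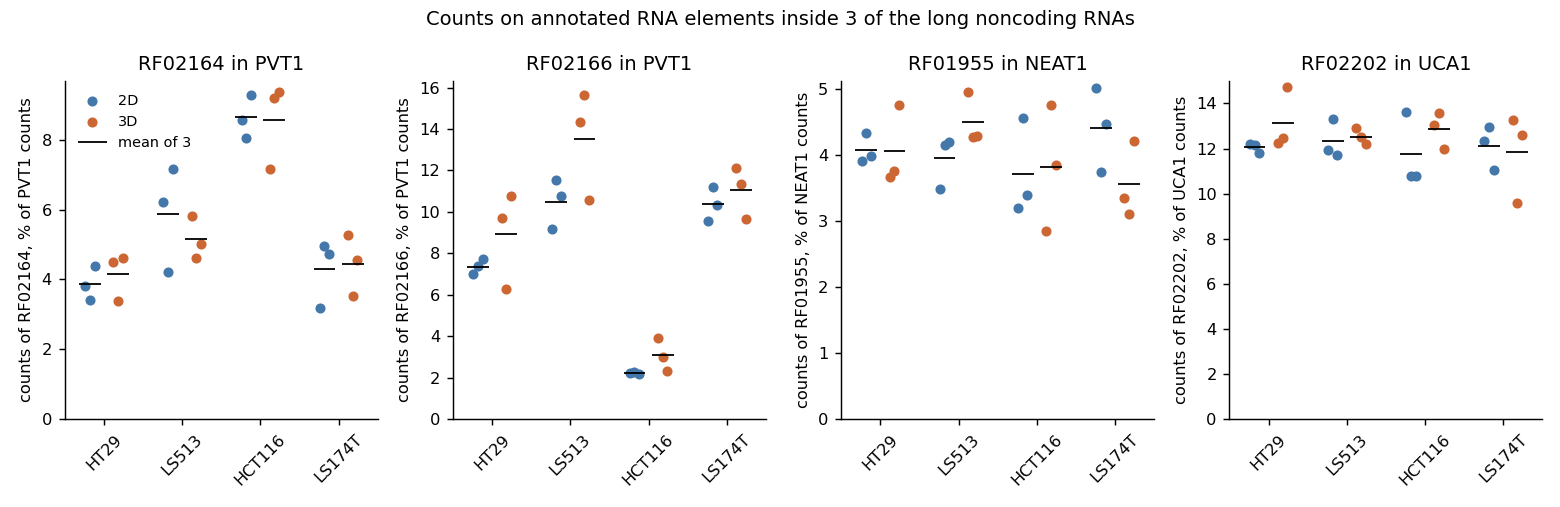
Counts on an annotated element as a percentage of the count of the gene that holds it (y axis, from 0), by cell line, with 1 point for each library, blue for 2D and orange for 3D, and the mean of 3 as a bar. RF02164 is highest in HCT116 (8.64% in 2D) where RF02166 is lowest (2.22%), while RF02202 lies near 12% of UCA1 in every group.

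MYC, the tested gene that precedes PVT1 by 53099 bases, was at 216 to 475 CPM in the 2D groups. It rose in LS174T by 0.68 (SE 0.13, adjusted p = 0.000971), where PVT1 rose by 0.48, and its values of 0.05 to 0.16 in the other lines did not pass the test. The growth effect on MYC differed among lines with an adjusted p of 0.0493. On the far side, FAM49B, 1738340 bases away, fell by 0.36 in HT29 (adjusted p = 0.00282) and did not pass the test in the other lines. The genes most like PVT1 in profile were CYP27B1 (0.35), PAQR7 (0.36) and PROSER2 (0.37), and within lines BUD31 (0.12), HM13 (0.12) and UBB (0.12), where PVT1 itself varied by a standard deviation of 0.23.

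The RefSeq span of CCAT1, chr8:127207382-127219268, lies inside CASC19 (ENSG00000254166, chr8:127072694-127227541, minus strand), which has 2795 exonic bases in it. CASC19 is a longer transcript and its count is not a count of CCAT1. Reads of CCAT1 that lie in those exonic bases may be counted to CASC19, and their part in the values below was not tested. In HT29, CASC19 went from 118, 142 and 144 CPM in 2D to 27.2, 37.9 and 40.5 CPM in 3D, a change of -1.93 (SE 0.17, adjusted p = 1.97e-08). In the other lines the values were 0.18 in LS513, 0.19 in HCT116 and -0.19 in LS174T, and the growth effect differed among lines (adjusted p = 1.59e-06). CASC19 in 2D was at 134 ± 14.5 CPM in HT29, 46.0 ± 3.46 CPM in LS513, 13.2 ± 1.04 CPM in HCT116 and 12.4 ± 0.567 CPM in LS174T, and only the last pair did not differ past the threshold (adjusted p = 0.684). CASC8, the next tested gene towards MYC, fell by 0.54 in HT29 (adjusted p = 0.0101) and rose by 1.60 in HCT116 (adjusted p = 9.02e-08).

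**Figure D5:**
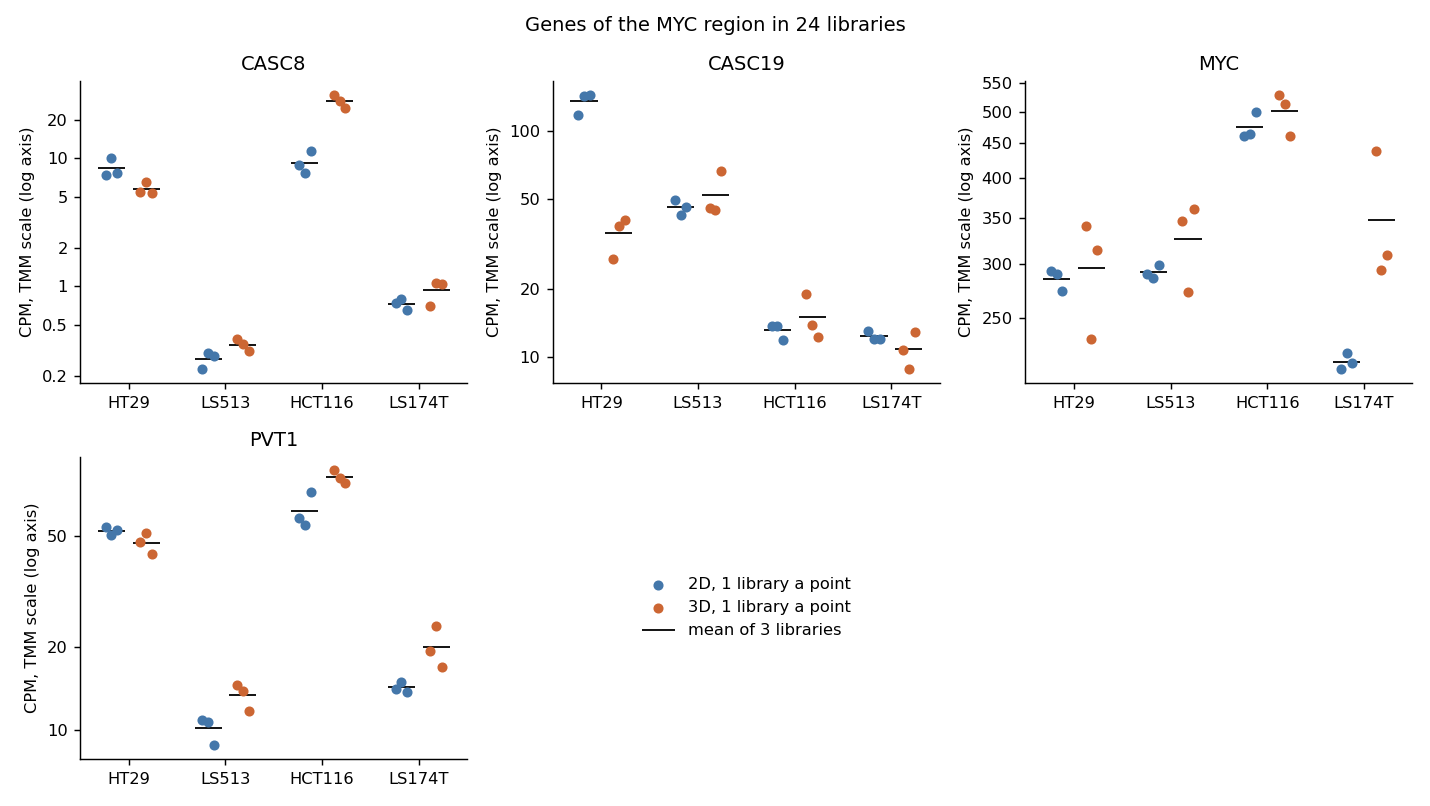
Levels of CASC8, CASC19, MYC and PVT1 in the 24 libraries, by cell line, as CPM on the TMM scale on log axes, with 1 point for each library and the mean of 3 as a bar. CASC19 falls from a mean of 134 to 35.2 CPM in HT29, while PVT1 in the same libraries has means of 52.3 and 47.3 CPM.

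NEAT1 (ENSG00000245532) is annotated at chr11:65422774-65445540 on the plus strand, as 22767 exonic bases in 1 block. In HT29 the 2D libraries held 154, 121 and 133 CPM and the 3D libraries 36.2, 89.2 and 40.4 CPM, with no overlap. The change was -1.30 (SE 0.41, adjusted p = 0.0165). It lost the call without 2D replicate 1 (-1.16, adjusted p = 0.0570), 3D replicate 1 (-1.04, 0.0902) or 3D replicate 4 (-1.09, 0.0799), and with a replicate block (-1.33, 0.0589).

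In LS174T, NEAT1 was at 115, 137 and 103 CPM in 2D and at 67.8, 29.3 and 90.3 CPM in 3D. All 3D libraries were lower, but the change of -0.92 (SE 0.41) did not pass the test (adjusted p = 0.112). In LS513 the 2D libraries lay between 132 and 141 CPM, and the 3D libraries held 123, 123 and 238 CPM, a change of 0.25 (SE 0.40, adjusted p = 0.730) that was -0.14 without 3D replicate 3. In HCT116 the 2D libraries held 28.4, 28.97 and 31.2 CPM and the 3D libraries 34.9, 11.7 and 13.0 CPM. The change there was -0.57 (SE 0.42, adjusted p = 0.336), and -1.28 (adjusted p = 0.0303) without 3D replicate 1. That library had 5.56% of its counts on mitochondrially encoded genes, against 2.08% and 1.35% in the other 3D libraries of HCT116, and the part of this in its NEAT1 level was not tested. The growth effect on NEAT1 did not differ among lines past the threshold (adjusted p = 0.226).

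In 2D, NEAT1 was at 136 ± 16.9 CPM in HT29, 136 ± 4.55 CPM in LS513 and 118 ± 17.2 CPM in LS174T, which did not differ past the threshold, and at 29.5 ± 1.5 CPM in HCT116, which was lower than each of them (log2 differences of 2.00 to 2.20, adjusted p from 0.000122 to 0.00032).

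RF01955, RF01956 and RF01957 are annotated elements on the strand of NEAT1, which start 499, 864 and 1186 bases from its start, in the stretch that the short and the long form share. RF01955 (chr11:65423273-65423392) is shown as the first of the 3.

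RF01955: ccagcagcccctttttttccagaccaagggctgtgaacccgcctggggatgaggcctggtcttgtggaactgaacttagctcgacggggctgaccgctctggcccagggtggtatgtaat

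Its 120 bases are 0.527% of the exonic bases of NEAT1 and held 4.07% ± 0.224 of its count in HT29 2D. RF01956 held 6.45% ± 0.367 and RF01957 5.92% ± 0.593 in the same group. RF01955 fell by 1.34 in HT29 (adjusted p = 0.00414) and by 1.13 in LS174T (adjusted p = 0.0217), with values of 0.42 in LS513 and -0.68 in HCT116 that did not pass the test. RF01956 and RF01957 fell in HT29 by 1.24 (adjusted p = 0.0178) and 1.16 (adjusted p = 0.0161), and in LS174T their values of -1.04 (adjusted p = 0.0642) and -1.01 (adjusted p = 0.0500291) did not pass the test. The growth effect differed among lines for RF01955 (adjusted p = 0.0350) and did not pass that test for RF01956 (0.221) or RF01957 (0.238).

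MALAT1 (ENSG00000251562) lies downstream of NEAT1 at chr11:65497688-65506516 on the same strand, with 8829 exonic bases in 1 block. In HT29 2D it was at 64.7, 58.2 and 231 CPM, the high value from replicate 3, the library with the lowest total, and in 3D at 20.4, 45.4 and 21.5 CPM. All 3D libraries were lower, with a change of -2.02 (SE 0.55, adjusted p = 0.00695), which was -1.06 (adjusted p = 0.0729) without 2D replicate 3 and lost its call when only the 6 libraries of HT29 were fitted (adjusted p = 0.0984). NEAT1 in that 2D library was 133 CPM, between the other 2D libraries.

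In LS513, MALAT1 went from 22.9, 21.7 and 16.9 CPM to 9.26, 20.6 and 18.1 CPM (-0.36, SE 0.55, adjusted p = 0.711), and in LS174T from 17.7, 22.8 and 19.5 CPM to 14.7, 19.5 and 17.9 CPM (-0.21, SE 0.55, adjusted p = 0.835). In HCT116 the 2D libraries held 7.91, 11.9 and 8.79 CPM and the 3D libraries 21.8, 5.03 and 4.64 CPM, a change of 0.14 (SE 0.57, adjusted p = 0.916) that was -0.997 without 3D replicate 1, the library in which NEAT1 was also high. The standard errors of MALAT1 and NEAT1, 0.40 to 0.57, were large beside the median of 0.17 to 0.18 over all tested genes, and a change of 1 on the log2 scale lay within 1.96 SE for MALAT1. The growth effect on MALAT1 did not differ among lines past the threshold (adjusted p = 0.177).

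In 2D, MALAT1 was higher in HT29 (118 ± 98.2 CPM) than in LS513 (20.5 ± 3.14 CPM), LS174T (17.7 to 22.8 CPM) and HCT116 (9.53 ± 2.10 CPM), with adjusted p from 2.51e-05 to 0.000694 and log2 differences of 2.52 to 3.62. Without 2D replicate 3 of HT29 the differences were 1.59 to 2.73 (adjusted p from 2.54e-05 to 0.00443). The other 3 lines did not differ from each other past the threshold, but without that library HCT116 was below LS513 (adjusted p = 0.0225) and LS174T (adjusted p = 0.0285). RF01871, an element of 95 bases inside MALAT1, went from 1.03, 1.27 and 6.13 CPM in HT29 2D to 0.482, 0.691 and 0.218 CPM in 3D (-2.53, adjusted p = 0.00139), and without 2D replicate 3 the change was -1.27 (adjusted p = 0.0458).

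AP000769.1, a transcribed pseudogene that lies between NEAT1 and MALAT1, rose by 1.98 in LS513 (adjusted p = 2.70e-06) and by 1.38 in LS174T (adjusted p = 0.0015), where the change of neither neighbour passed the test. FRMD8, the tested gene before NEAT1, passed the test in 0 of 4 lines. The profiles most like that of NEAT1 were those of AL390066.1 (0.39), CFAP44 (0.48) and AC122688.3 (0.51), and within lines LENG8 (0.25), AL390066.1 (0.29) and GABRE (0.29). For MALAT1 they were AL109614.1 (0.56), AC083843.2 (0.61) and MIR17HG (0.62), and within lines AL669831.5 (0.42), AL109614.1 (0.43) and GOLGA8A (0.43).

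Genes of the bodies in which these RNAs lie were counted from written lists. Of 31 tested genes of paraspeckle proteins, 3 rose and 16 fell in HT29, 0 rose and 5 fell in LS513, 1 rose and 13 fell in HCT116, and 1 rose and 3 fell in LS174T. Of all tested genes, 21.1%, 13.7%, 16.8% and 13.1% rose in these lines in that order, and 19.6%, 9.9%, 12.3% and 9.15% fell. The share that fell in LS174T was near that of all genes. The list medians of -0.25, -0.13, -0.22 and -0.13 in that order lay below those of all tested genes. SRSF10, a splicing regulator, fell in all 4 lines, by 0.38 to 0.64. SMARCA4, an ATPase of the SWI/SNF complex, fell in 3 lines and TAF15, an RNA-binding protein, fell in 3 lines. CIRBP, the cold-inducible RNA-binding protein, rose in HT29 (0.59) and LS174T (0.44). CELF6 rose in HT29 from 0.0801 CPM, below the floor.

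Of 23 tested genes of nuclear speckles and of MALAT1, 1 rose and 8 fell in HT29, 1 rose and 3 fell in LS513, 0 rose and 9 fell in HCT116, and 1 rose and 4 fell in LS174T, with medians of -0.25, -0.06, -0.22 and -0.11. Of all tested genes, 21.1%, 13.7%, 16.8% and 13.1% rose in these lines in that order, and 19.6%, 9.9%, 12.3% and 9.15% fell. The count that fell in LS513 was near the share of all tested genes. SON, a scaffold protein of nuclear speckles, went from 337 ± 7.97 to 184 ± 4.47 CPM in HT29 (-0.87) and fell by 0.40 to 0.66 in the other lines. SRSF11 fell in all 4 lines, by 0.67 in HT29 and by 0.26 to 0.34 in the others, and PNN, the speckle protein pinin, fell in 3. SRSF5 rose in HT29 (0.42), LS513 (0.49) and LS174T (0.63).

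Levels between genes were set side by side as CPM per kilobase of all annotated exon. For NEAT1 this divides by the full 22767 bases of its long form, which understates a level that rests on the short form, so its place in the order is uncertain. The other genes are likewise divided by the exons of all their annotated transcripts, from 4 for MIR210HG to 36 for UCA1. The order of genes with close values is therefore uncertain too. In 2D, PVT1 was at 11.2 CPM per kilobase in HCT116, where UCA1 was at 6.65, and UCA1 was at 28.5 in LS513. In LS174T, NEAT1 was at 5.19 and UCA1 at 3.82. In HT29, MALAT1 had the highest mean at 13.4 CPM per kilobase, which rested on 2D replicate 3 (26.2), and PVT1 was higher in the other 2D libraries, at 9.81 and 9.17 against 7.33 and 6.59. In 3D, UCA1 was at 81.5 in LS513, 37.1 in HCT116 and 8.94 in HT29, where PVT1 was at 8.61, and MIR210HG was at 9.18 in LS174T, where UCA1 was at 8.79. MIR210HG was the lowest of the 5 in every line in 2D, at 0.165 to 0.601 CPM per kilobase.

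Between lines in 2D, 4 of the 5 differed between HT29 and LS513 (60.6% of all tested genes), 3 between HT29 and HCT116 (68.8%), 4 between HT29 and LS174T (64.6%), 4 between LS513 and HCT116 (68.3%), 2 between LS513 and LS174T (57.6%) and 4 between HCT116 and LS174T (68.3%). UCA1 and PVT1 were the 2 that differed between LS513 and LS174T. These shares are near those of all genes.

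A list of 69 other lncRNAs linked to CRC gives the rest of the class, of which 54 were tested. In HT29, 15 rose and 12 fell, in LS513 13 rose and 5 fell, in HCT116 12 rose and 6 fell, and in LS174T 14 rose and 3 fell. The medians were 0.00, 0.14, 0.19 and 0.09, and genes without reads in a line enter at 0. Of all tested genes, 21.1% rose and 19.6% fell in HT29, and 13.7% and 9.9% in LS513. The shares were 16.8% and 12.3% in HCT116, and 13.1% and 9.15% in LS174T. The counts that fell in HT29, LS513 and HCT116 were near this background. Of the 54, 6 rose in all 4 lines and 0 fell in all. The share of all tested genes that did so was not counted, so these counts have no background beside them. LINC00511 rose by 0.58 to 1.11. EPB41L4A-AS1 rose by 0.54 to 1.08, and ZFAS1, a host of small nucleolar RNAs, rose by 0.67 to 1.08, in HT29 from 113 ± 8.85 to 239 ± 19 CPM. The others were HOXA11-AS, PCAT6 and HIF1A-AS2, named after their values were seen. HIF1A-AS2 had at most 1 count in any 2D library and at most 12 in any 3D library, at or near the floor. PCAT6 had at most 3 counts in any 2D library of HT29 and at most 6 in any of HCT116, also at or near the floor.

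KCNQ1OT1, the antisense RNA of the imprinted KCNQ1 region, fell by 1.76 in HT29, 1.09 in LS513 and 1.13 in LS174T, with a value of -0.85 in HCT116 that did not pass the test. OIP5-AS1 fell by 0.49 to 0.55 in HT29, LS513 and HCT116. VPS9D1-AS1 fell in HT29 (0.67) and LS174T (0.40).

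A list of other host transcripts of microRNAs was counted beside MIR210HG. Of 18 tested, 0 rose and 7 fell in HT29, with a median of -1.08, 2 rose and 0 fell in LS513, 1 rose and 0 fell in HCT116, and 0 rose and 3 fell in LS174T. Of all tested genes, 21.1%, 13.7%, 16.8% and 13.1% rose in these lines in that order, and 19.6%, 9.9%, 12.3% and 9.15% fell. The count that rose in LS513 was near the background. MIR34AHG, the host of miR-34a, fell by 1.48 in HT29 and 1.16 in LS174T. MIR4435-2HG fell by 0.55 in HT29 and rose by 0.47 in LS513, MIR22HG rose by 1.61 in LS513 and MIR200CHG by 0.90 in HCT116. AC020916.1 fell by 1.70 in HT29.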

How the data were processed

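The deposited values are whole-number read counts by gene, which the authors gave for 8 technical replicates of each of 24 libraries, with 7 used here for 1 library of HT29 grown in 3D. The kit selected poly(A) RNA and marks strand. Per the study's methods, reads were trimmed, filtered and aligned with STAR to the genome of Ensembl release 91, reads that aligned more than once were removed, and the rest were counted with HTSeq-count. The submitters' processing notes name Trim Galore 0.4.1, HTSeq 0.5.3 and the build hg19. Identifiers fit the Ensembl release, so positions are from GENCODE 29 on GRCh38, and the build of the alignment stays uncertain. Multi-mapping reads were dropped, which lowers the counts of genes with near-identical copies. Elements inside the lncRNAs held counts of their own, and the overlap mode of the counting is not given in the sources used here.

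Technical replicates were summed, since they differed by about counting error (median chi-square per degree of freedom from 0.906 to 0.933). Identifiers were matched to symbols by the name tables. In R 4.3.3, edgeR 4.0.16 kept 19387 genes with filterByExpr, scaled by TMM and fitted the 24 libraries together in a model of 8 group means, without a block. Calls are at an adjusted p under 0.05. An exact permutation test of 3 against 3 libraries cannot go below 0.1 and was not used. In simulated data for HT29 with 19387 genes, 83 of 100 genes changed by 1 on the log2 scale were called, 97 of 100 changed by 2, and there were 6 false calls. The changed genes were drawn from those with a mean above 2 CPM, and the spread was that estimated by the same fit. These rates therefore do not describe genes at low levels or with a wide spread, such as MALAT1 and NEAT1.

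The genes and lists were chosen with earlier results of these data known. Named genes are the lncRNAs, their nearest tested neighbours and overlapping genes, up to 3 genes of each list that rose and 3 that fell in the most lines, and the 3 most similar profiles. Some genes that this rule names are not reported here. Alternatives were DESeq2 size factors, DESeq2 1.42.0, no filter, a replicate block, no technical replicate d, single-line fits, the cutoffs of the study and leaving out each library. No molecular identifiers are named for these libraries, so the floor covers counting error only. No column of sample values went unused (0).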

Additional observations from a re-analysis of the deposited data

Results flagged for a closer look

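The response of UCA1 to growth differed among the 4 lines (adjusted p = 5.68e-05, edgeR quasi-likelihood test of the interaction). The value was 0.04 in HT29, beside increases of 1.52 in LS513, 2.48 in HCT116 and 1.20 in LS174T, where all 3D libraries were above all 2D libraries. The adjusted p ranged from 3.61e-38 to 0.00395 over the alternatives that kept all libraries. Values far below that of the main fit are not read as stronger evidence.

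The response of PVT1 also differed among lines (adjusted p = 0.0336), with -0.14 in HT29 and 0.40, 0.40 and 0.48 in LS513, HCT116 and LS174T. It ranged from 0.0154 with DESeq2 to 0.169 with a replicate block.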

How the results depend on the processing

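Of 120 fold changes of the 5 lncRNAs in a line that were recomputed with all libraries, 114 kept their direction and their side of the threshold, 3 lost the call, 2 gained it and 1 changed sign. The fold changes of MIR210HG in all lines, and of UCA1 in LS513, HCT116 and LS174T, kept both under these fits and when a library was left out. The count that fell in HT29 was 1 with a replicate block and 1 with only the 6 libraries of the line, where 2 had fallen, and 1 to 2 when a library was left out. With all genes of at least 1 count, 1 fell in HCT116 and 1 in LS174T, NEAT1 in both (-0.60 and -0.91, adjusted p = 2.68e-05 and 4.38e-12). The 2D and 3D libraries of NEAT1 overlapped in HCT116, where the main fit gave an adjusted p of 0.336. The small p-values of the unfiltered fit are therefore not read as a measure of the spread between libraries. The count that fell in HCT116 was 0 to 1 when a library was left out. The fold cutoffs of the study left 1 that rose in LS174T, since UCA1 and PVT1 changed by less than 1.5 there, and 2 that rose in LS513 and 2 in HCT116, where PVT1 was lost. The study set its cutoffs, below -0.5 or above 1.5, beside a p under 0.05 and stated no adjustment. In LS174T, NEAT1 changed by -0.92, with an unadjusted p of 0.0362 and an adjusted p of 0.112 (edgeR quasi-likelihood test). The number whose growth effect differed among lines was 1 with DESeq2 size factors, 1 with a replicate block, and 1 to 2 when a library was left out, and PVT1 was the gene lost. With all genes of at least 1 count, PVT1 lost that call (0.0758) while MALAT1 (1.10e-25) and NEAT1 (1.31e-16) gained it. The limit on the p-values of the unfiltered fit applies here too. The cause was not tested. MALAT1 in HCT116 turned to -0.20 with the replicate block, and ranged from -0.997 to 0.47 when a library was left out. NEAT1 in LS513 ranged from -0.14 to 0.40 and UCA1 in HT29 from -0.14 to 0.37. Replicate numbers are shared by 11 pairs of 2D and 3D libraries, and the correlations of their deviations, -0.146 to 0.0938, gave no sign of pairing. Of the 2D libraries, 3 correlated best with their own number. The replicate block otherwise left the counts of lncRNAs that rose or fell as they were. MIR210HG in HT29 2D rests on 4 to 17 counts, which limits the precision of its fold change.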

Other observations

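Some lncRNAs of the wider CRC list changed in opposite directions in different lines. They were named after their values were seen. LUCAT1 fell in HT29 from 3.09 ± 0.422 to 0.762 ± 0.262 CPM (-2.03, adjusted p = 5.26e-05). It rose by 2.27 in LS513, where 0.252 ± 0.0702 became 1.23 ± 0.306 CPM (adjusted p = 0.000212), and in HCT116 from 0.371 ± 0.0737 to 1.28 ± 0.126 CPM (1.77, adjusted p = 0.00101). The growth effect differed among lines (adjusted p = 3.36e-06). BLACAT1 rose in HCT116 (1.38) and LS513 (0.76) and fell in LS174T by 1.89, from 1.69 ± 0.113 to 0.454 ± 0.139 CPM (adjusted p that lines differ 1.40e-06).

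H19, the imprinted RNA that is abundant in the fetus, was at 572 ± 30.9 CPM in LS174T 2D and 0.162 ± 0.049 CPM in HT29 2D. It rose in HT29 to 9.18 ± 4.81 CPM (5.73, adjusted p = 2.11e-08) and in LS174T to 1008 ± 99.5 CPM (0.82, adjusted p = 0.0182), and fell in LS513 by 0.91 (adjusted p = 0.0090), with an adjusted p of 3.20e-07 that lines differ. H19 had at most 6 counts in any 2D library of HT29, near the floor, which limits the precision of its fold change there. LINC00261 rose in HT29 from 0.140 ± 0.0579 to 3.18 ± 0.874 CPM (4.43, adjusted p = 1.39e-07), had 0 counts in every HCT116 library, and had values of 0.50 in LS513 and 0.33 in LS174T that did not pass the test. LINC00261 also had at most 6 counts in any 2D library of HT29. LINC01133 rose in 3 lines and fell in 0. The LS513 libraries went from 1.60 ± 0.264 to 9.30 ± 2.24 CPM (2.54, adjusted p = 1.29e-06), and those of LS174T from 1.85 ± 0.137 to 5.90 ± 1.42 CPM (1.67, adjusted p = 0.000286). It also rose in HCT116 from a 2D level below the floor to 0.419 ± 0.0735 CPM (adjusted p = 0.00076), and its value of 0.68 in HT29 did not pass the test.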
